A study of Mus musculus with 30 samples.

Results

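The transcripts described here encode the proteins of the cytosolic ribosome. The members were all genes with a transcript cluster of 1 distinct symbol that reads Rpl or Rps, then digits, then optionally a, x or l, together with Rpsa and Rplp0. That gave 38 genes of 30142 measured with 1 symbol, 23 of the large subunit and 15 of the small, chosen by name alone. Where a gene had several such clusters, the one of highest mean signal was taken. All 38 lay among the 18087 genes kept for testing, which were the upper 60% by mean. A further 38 ribosomal protein genes of this naming pattern, Rpl10, Rpl3, Rplp1, Rplp2, Rps6 and Rps27 among them, stood only on clusters that list several symbols. Those clusters were fitted separately.

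The cytosolic ribosome joins ribosomal RNAs with a large set of proteins, most of them encoded by a single active gene and present in 1 copy per ribosome. The large subunit holds the peptidyl transferase centre and the small subunit decodes the mRNA. Ribosomal protein mRNAs are short, abundant and long-lived, many start with a pyrimidine tract (the TOP motif) through which mTOR signalling controls their translation, and their processed pseudogenes are scattered through mammalian genomes. In mouse development the maternal ribosomes of the egg are replaced after the embryonic genome is activated at the 2-cell stage. A few ribosomal proteins have paralogs with a restricted expression, such as Rpl10l, a retrocopy of the X-linked Rpl10 that is needed in mouse spermatogenesis, and Rpl39l, also abundant in testis.

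Each of 30 arrays held the RNA of a single mouse blastocyst (B6C3F1 × CD1). In 10 pairs, the blastomeres of a 2-cell embryo were parted after 2 h in KSOM(aa), and 1 twin developed alone in GM501 and its co-twin alone in SAGE 1-Step, both media for human assisted reproduction. The 10 controls stayed undivided, each cultured alone in KSOM(aa), which was formulated for mouse embryos. All were 4 dpc after 96 h of culture, and the labels give 40 to 50 cells for a twin and 80 for a control. Twins and controls thus differ in bisection, medium and cell number together, which cannot be told apart. In whole embryos, fewer cells of a type and less RNA per cell cannot be told apart either. The embryos came from zygotes collected after hormone stimulation. RNA was amplified as cRNA before labelling, and the signals are RMA values on a log2 scale, relative within a cluster.

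Over all clusters the array median was 4.88 ± 0.24 for GM501 twins and 4.89 ± 0.22 for SAGE twins, against 4.64 ± 0.029 for controls (SD, n = 10 each). They were higher in pairs 1 to 6, with 5.01 ± 0.15 over 12 arrays, than in pairs 7 to 10, with 4.69 ± 0.18 over 8 arrays. No label names a batch. The sets were drawn from the arrays themselves in an earlier look at these data, so values within them are given as descriptions beside those of all 10 pairs. Fits against controls assume equal spread in both groups. Where the fewer twins of a set vary more than the controls, its SE and adjusted p come out too small. The SAGE twin of pair 8 had a median of 5.12, unlike the other 7 arrays of its set. Among lineage genes of the blastocyst, 7 trophectoderm markers had means of 7.17 to 17.8. Means ran from 4.99 to 13.1 for 5 epiblast markers and from 4.65 to 11.8 for 4 measured primitive endoderm markers. The 6 measured markers of cumulus cells, oviduct and blood reached at most 5.79 on any array, above the lowest epiblast and primitive endoderm means. Whether such cells were absent was not tested.

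The start regions of 5 members are shown: Rpl10l, Rpsa, and Rpl39, Rpl39l and Rpl38, which were called below for embryo of origin. Each runs from 200 bases before to 30 bases after the 1 start per gene that the RefSeq promoter table gives on GRCm38.p6, 5′ to 3′ on the gene's strand. Capitals mark CCGGAAG, read on either strand, a core that ETS-family factors such as GABPA bind. The regions lie at chr12:66284372-66284601 (minus strand), chr9:120127566-120127795 (plus strand), chrX:37085193-37085422 (minus strand), chr16:10170028-10170257 (plus strand) and chr11:114668380-114668609 (plus strand). For Rpl39l and Rpl38 the annotated gene begins upstream of that start, at position 10170197 of chromosome 16 and 114667818 of chromosome 11, and starts of other transcripts are not shown.
Rpl10l: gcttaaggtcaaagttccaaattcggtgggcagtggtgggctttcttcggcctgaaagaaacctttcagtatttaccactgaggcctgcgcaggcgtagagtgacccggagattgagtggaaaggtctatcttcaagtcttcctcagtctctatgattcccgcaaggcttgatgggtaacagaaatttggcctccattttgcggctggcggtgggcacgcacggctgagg
Rpsa: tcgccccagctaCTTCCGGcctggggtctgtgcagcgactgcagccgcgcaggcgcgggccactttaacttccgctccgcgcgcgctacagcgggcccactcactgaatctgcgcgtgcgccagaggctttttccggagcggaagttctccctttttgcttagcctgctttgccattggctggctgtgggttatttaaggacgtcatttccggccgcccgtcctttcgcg
Rpl39: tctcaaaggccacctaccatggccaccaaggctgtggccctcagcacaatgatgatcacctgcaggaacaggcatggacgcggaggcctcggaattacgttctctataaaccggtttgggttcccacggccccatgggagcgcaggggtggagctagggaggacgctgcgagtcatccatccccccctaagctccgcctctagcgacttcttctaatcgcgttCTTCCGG
Rpl39l: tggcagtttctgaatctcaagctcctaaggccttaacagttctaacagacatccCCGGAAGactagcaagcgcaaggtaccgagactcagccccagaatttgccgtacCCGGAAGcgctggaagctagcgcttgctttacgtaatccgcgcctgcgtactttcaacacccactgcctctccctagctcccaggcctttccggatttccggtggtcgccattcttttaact
Rpl38: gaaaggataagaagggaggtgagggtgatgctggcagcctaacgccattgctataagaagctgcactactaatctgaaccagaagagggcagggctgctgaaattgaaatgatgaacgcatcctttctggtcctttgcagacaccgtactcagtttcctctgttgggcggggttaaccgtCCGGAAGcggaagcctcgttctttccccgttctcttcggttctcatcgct
Rpl10l had no CCGGAAG in this window, while the other members shown had it, Rpl39l more than once. Rpl32l, Rps28 and Rps24, also called for embryo of origin, had none in the longer window used next. A link between this core and that call was not tested.

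Over all members with a promoter in the table, 32 of 38, CCGGAAG stood on either strand of the somewhat longer promoter window of that table in 15 (46.9%), against 9.12% of 27025 mouse promoters. CTTTC on the transcribed strand within 20 bases of a start, as a short stand-in for the pyrimidine tract, stood in 8 (25%), against 5.38%. AAGATGG, a core that YY1 binds, stood in 3 (9.38%) on either strand of the same window, against 6.48%. The difference between GM501 twins and controls had a median of 0.12 over the 15 members with CCGGAAG and 0.069 over the 17 without it. The median SE of a member was 0.10 for both. In pairs 1 to 6 these medians were 0.28 and 0.16, and in pairs 7 to 10 they were -0.1145 and -0.1275. In SAGE twins over all pairs they were 0.132 and 0.017. Whether members with and without the core differ was not tested.

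**Figure D1:**
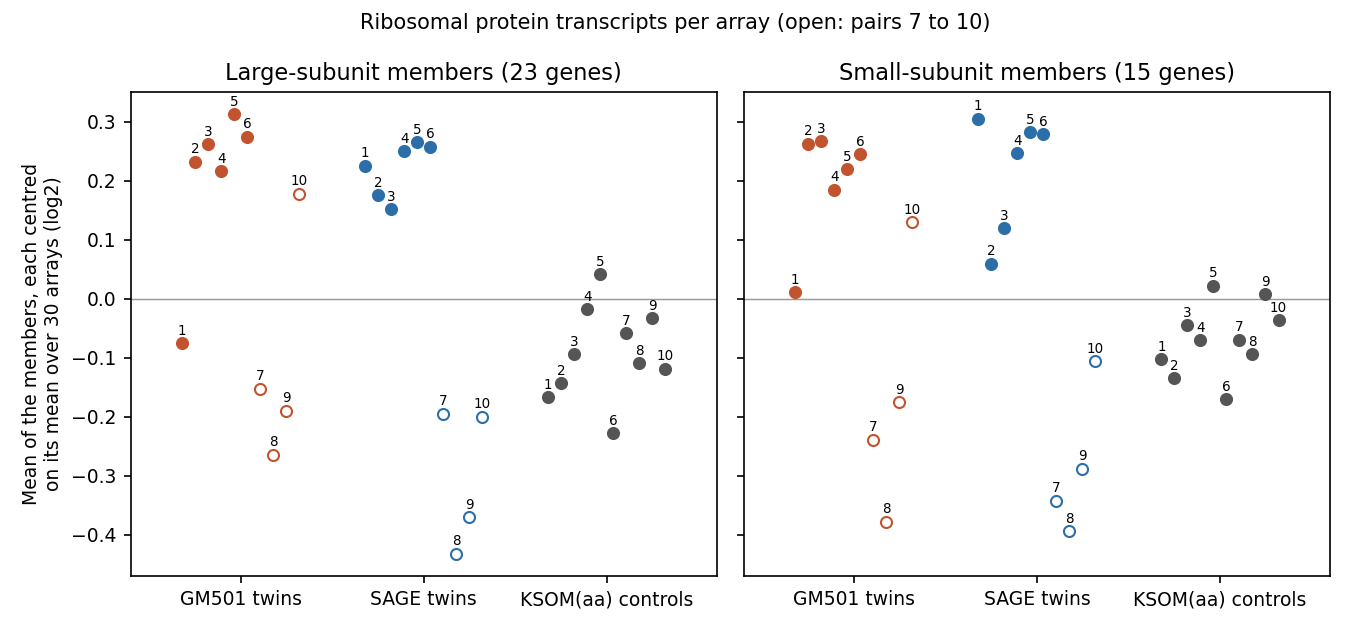
Mean of the 23 large-subunit members (left panel) and 15 small-subunit members (right panel) on each array, with every gene centred on its mean over 30 arrays (log2). Groups run from GM501 twins over SAGE twins to KSOM(aa) controls, numbers are the pair or control, and open points are pairs 7 to 10. Apart from the GM501 twin of pair 1, twins of pairs 1 to 6 lie above all controls, and 7 of 8 twins of pairs 7 to 10 lie below 0.

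Signals of the members spanned most of the array's range. The lowest mean was 4.82 for Rpl3l, a paralog of Rpl3 that is typical of striated muscle, close to the lowest mean kept of 4.80. The highest was 18.8 for Rpl41, whose cluster varied by an SD of 0.07 over all 30 arrays while the highest value of any cluster was 19.3. Signals of different clusters are not compared with each other here, since probes differ in brightness. Of the 38 clusters, 6 were numbered on another chromosome than their gene (Rpl7a, Rpl12, Rpl27, Rpl31, Rpl35 and Rpl41), so their probes may read transcripts of near-identical copies. With clusters of the gene's own chromosome the counts over all pairs did not change, but this check could show little. None of the 6 was called over all pairs, and every called member already stood on its own chromosome. Rpl12 and Rpl31 had no cluster there and dropped out.

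In the twins grown in GM501, 2 of the 38 members differed from the undivided controls: Rpl10l rose and Rpsa fell. That is 5.26% of the members, against 13.8% of all genes tested (6.81% higher and 6.97% lower). The count moved with the setting: array weights, which give arrays far from their group less weight, gave 15 rises and 3 falls (28.1% of all genes higher and 15.7% lower), and leaving out the GM501 twin of pair 8 gave 6 rises (all genes 14.8% higher). The median difference of the members was 0.11, against 0.114 over all genes, and 28 of 38 differences lay above 0 (all genes 61.6%). For 25 of the 38 members the difference was smaller than 0.2. For 36 members the 95% interval of limma excluded a change of 1 or more, that is 2-fold, in either direction, with a median half-width of 0.22. These intervals hold for the mean over all 10 pairs and do not bound a set of pairs. In pairs 1 to 6, Rpl39 differed by 0.93 ± 0.12 and Rps28 by 0.90 ± 0.12. Among genes with a mean of at least 10, 19.3% were called in GM501 twins and 19.6% in SAGE twins.

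Rpl10l, the autosomal paralog of the large-subunit protein Rpl10, was the member with the largest difference. Its lowest, median and highest signals were 9.66, 11.7 and 12.5 in GM501 twins, against 9.47, 10.1 and 11.4 in controls. The groups overlapped, yet 9 of 10 GM501 twins lay above the controls' median and 6 above their maximum. The mean difference was 1.23 ± 0.34 (SE, adjusted p = 0.026 by limma), which is larger than the SD of 0.96 within GM501 twins and 0.59 within controls. The gene lies at chr12:66283379-66284401 (GRCm38.p6). It stayed called without any 1 of the 20 arrays. Pairs 1 to 6 gave a difference of 0.78 ± 0.36 (adjusted p = 0.0749). Pairs 7 to 10 gave 1.90 ± 0.30 (adjusted p = 0.00869), and there all 4 GM501 twins exceeded every control.

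Rpsa, the small-subunit protein that also serves as the laminin receptor, was lower in GM501 twins. Its signals ran from 13.1 over 13.6 to 13.9 in GM501 twins (lowest, median, highest), against 13.8, 13.9 and 14.1 in controls. Of the GM501 twins, 7 lay below the lowest control. The difference was -0.365 ± 0.11 (SE, adjusted p = 0.0399). Pairs 1 to 6 gave -0.57 ± 0.09 (adjusted p = 6.89e-05), whereas pairs 7 to 10 gave -0.0515 ± 0.081 (adjusted p = 0.821). The call held without 5 of the 20 arrays left out in turn and was lost without any of the other 15, among them each twin of pairs 1 to 6, with adjusted p up to 0.0764.

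The same questions were asked of the SAGE twins, against the same 10 controls. Of the 38 members, Rpl6l rose and Rpsa fell, again 5.26%, against 16.1% of all genes (7.49% higher and 8.64% lower). Array weights gave 14 rises and 3 falls (31.8% of all genes higher and 17.2% lower), and leaving out the SAGE twin of pair 9 gave 5 rises (all genes 20.7% higher). The median of the members was 0.06, against 0.111 over all genes, and 26 of 38 differences lay above 0 (all genes 60.3%). Over all 10 pairs the 95% interval excluded a change of 1 or more for 36 members, Rpl39 among them, which differed by 0.92 ± 0.13 in pairs 1 to 6. Rpl6l, a retrocopy of the large-subunit gene Rpl6 that RefSeq lists as a pseudogene, had signals of 11.8, 12.8 and 13.2 in SAGE twins (lowest, median, highest), against 11.6, 12.2 and 12.5 in controls. Of the SAGE twins, 8 lay above the highest control. The difference was 0.56 ± 0.17 (adjusted p = 0.0354), and 0.31 ± 0.18 in GM501 twins (adjusted p = 0.196). Rpl6 itself differed by 0.043 in SAGE twins (adjusted p = 0.678). Because the copies are close in sequence, transcripts of Rpl6 and Rpl6l may share probes.

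Rpsa was also lower in the SAGE twins, with signals of 12.6, 13.6 and 13.9 (lowest, median, highest) against 13.8, 13.9 and 14.1 in controls, and 7 of 10 below the lowest control. The difference was -0.44 ± 0.15 (adjusted p = 0.0489). The call of Rpsa, SAGE against KSOM controls, ended by limma with the upper 40% of genes (adjusted p = 0.0523), with trended robust variances (adjusted p = 0.0517) and with centring on array medians (-0.40, adjusted p = 0.054). Rpl10l had 10.1, 10.8 and 12.6 in SAGE twins, against 9.47, 10.1 and 11.4 in controls, and 9 of 10 lay above the controls' median. Its difference of 0.79 ± 0.28 did not pass (adjusted p = 0.0538). Leaving out arrays 1 by 1 kept the call of Rpl6l in 11 of 20 fits and that of Rpsa in 5 of 20, and made one for Rpl10l in 5 of 20. Over pairs 7 to 10 no member was called in SAGE twins, with 0.25 ± 0.22 for Rpl6l and -0.33 ± 0.13 for Rpsa.

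When both twins of a pair were averaged, so that no embryo counted more than once, 5 members differed from controls, against 25.6% of all genes (14.2% higher and 11.4% lower), and 27 of 38 differences lay above 0 (all genes 61.1%). Rpl10l rose by 1.01 ± 0.26 (adjusted p = 0.0142), Rpl6l by 0.44 ± 0.15 (adjusted p = 0.0393) and Rps28 by 0.59 ± 0.20 (adjusted p = 0.04). Rps28 is a small-subunit protein near the mRNA exit. Rpsa fell by 0.40 ± 0.12 on the log2 scale (adjusted p = 0.022). Rplp0, the base of the ribosomal stalk to which Rplp1 and Rplp2 bind, fell by 0.20 ± 0.07 (adjusted p = 0.0454). Its signals were 14.36, 14.45 and 14.69 in GM501 twins and 13.95, 14.36 and 14.67 in SAGE twins (lowest, median, highest), against 14.48, 14.63 and 14.71 in controls. The groups overlapped, with 7 GM501 and 6 SAGE twins below the lowest control. The calls of Rpl10l and Rpsa held without any 1 pair or control, whereas Rpl6l was called in 9 of 20 such fits and Rps28 and Rplp0 in 5 of 20 each.

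**Figure D2:**
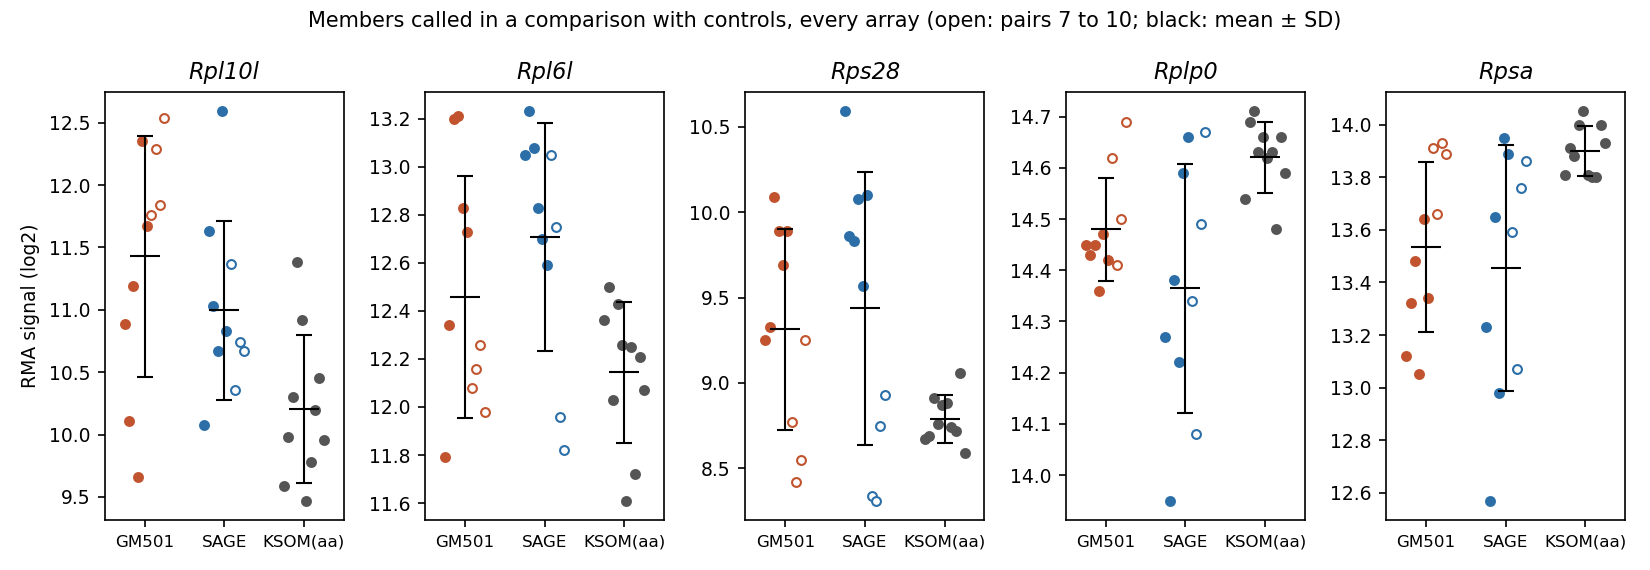
RMA signal (log2) of the 5 members called in a comparison with controls, on every array; each panel has its own axis. Groups run from GM501 twins over SAGE twins to KSOM(aa) controls, open points are pairs 7 to 10, and bars give the mean ± SD of 10 arrays. The open points of Rps28 lie between 8.31 and 9.25, around the controls, while those of Rpl10l in GM501 lie above all controls.

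Rps28 shows how the 10 pairs divided. Its signals were 8.42, 9.29 and 10.1 in GM501 twins and 8.31, 9.70 and 10.6 in SAGE twins (lowest, median, highest), against 8.59, 8.75 and 9.06 in controls. In pairs 1 to 6 it was higher than in controls by 0.90 ± 0.12 in GM501 twins and 1.22 ± 0.12 in SAGE twins. In pairs 7 to 10 the differences were -0.042 ± 0.13 and -0.21 ± 0.13. Twins thus lay on both sides of the narrow range of the controls.

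The division held for many members. In pairs 1 to 6, 22 members rose and 5 fell in GM501 twins, where 59.4% of all genes were called (38.3% higher, 21.1% lower) and 61.4% lay above 0. In SAGE twins 20 rose and 3 fell, where 58.8% of all genes were called (38.9% higher, 19.9% lower) and 63.2% lay above 0. Pair means gave 21 rises and 5 falls, with 64.1% of all genes called (42.1% higher, 22.0% lower) and 62.4% above 0. The median of the members was 0.27 in GM501 twins and 0.26 in SAGE twins, against 0.19 and 0.20 over all genes. The largest rises in GM501 twins were those of Rpl39, a short protein of the exit tunnel (0.93 ± 0.12), Rps28, Rpl31 (0.85 ± 0.33), Rps20 (0.79 ± 0.11) and Rpl39l (0.78 ± 0.26). Rpsa, Rps14 (-0.32 ± 0.078), Rpl8 (-0.28 ± 0.11), Rplp0 (-0.19 ± 0.062) and Rpl4 (-0.16 ± 0.06) fell.

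In pairs 7 to 10 the differences lay mostly below 0. Rpl10l rose in GM501 twins and no other member was called in either medium (all genes 1.32% in GM501, 0.746% higher and 0.575% lower; 0.813% in SAGE, 0.282% higher and 0.531% lower). In GM501 twins 8 of 38 differences lay above 0 (all genes 47.4%), with a median of -0.099. In SAGE twins 4 of 38 did (all genes 45.4%), with a median of -0.20, and 18 members had an unadjusted p under 0.05. Pair means gave 4 of 38 above 0 and no call (all genes 46.7% above 0 and 0.73% called, 0.381% higher and 0.348% lower). Without pair 8 the median was -0.0245 in GM501 and -0.18 in SAGE.

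**Figure D3:**
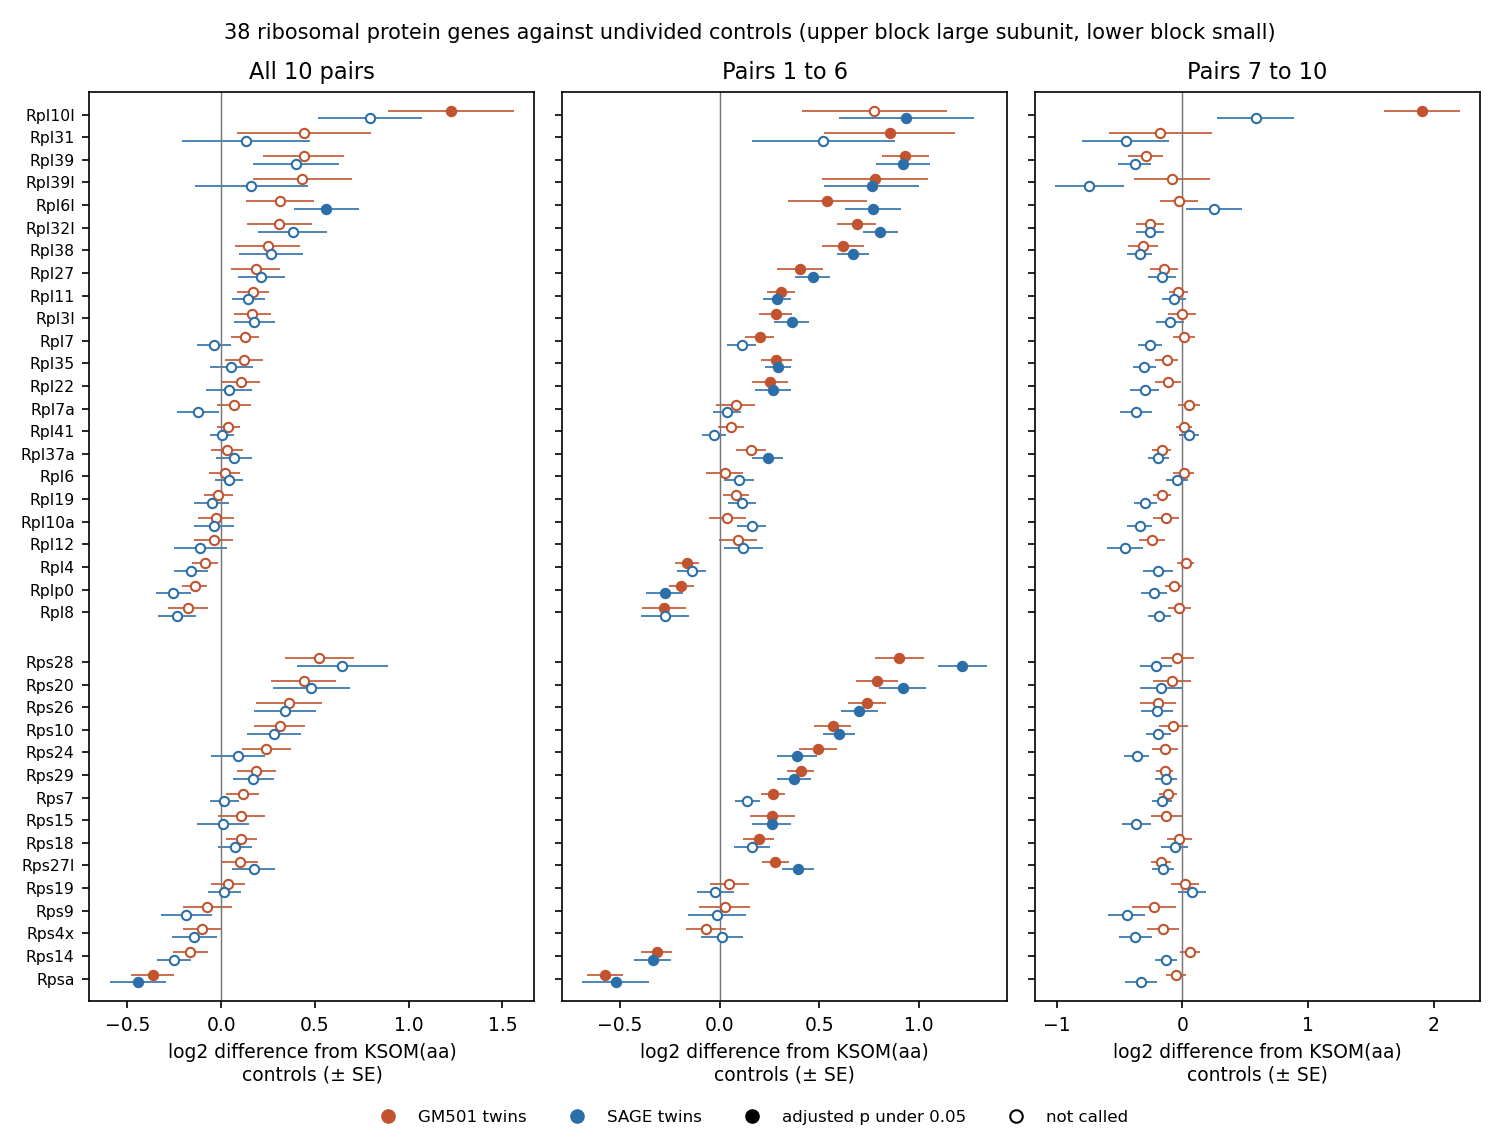
Difference from the KSOM(aa) controls (log2, ± SE) of each of the 38 members in GM501 twins (orange) and SAGE twins (blue), for all 10 pairs, pairs 1 to 6 and pairs 7 to 10; filled points passed an adjusted p of 0.05. The upper block holds the large subunit, the lower the small, and each panel has its own axis. Over all pairs 2 points per medium are filled, against 27 and 23 in pairs 1 to 6 and 1 and 0 in pairs 7 to 10.

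The subunits lay close together. The large-subunit members had a median difference from controls of 0.12 in GM501 twins and 0.054 in SAGE twins, and the small-subunit members had 0.11 and 0.074. On single arrays the mean of the large-subunit members minus that of the small-subunit members was 0.027 ± 0.062 in GM501 twins and -0.0031 ± 0.082 in SAGE twins, against -0.024 ± 0.043 in controls (SD, n = 10 each). Its whole range over 30 arrays, from -0.094 to 0.148, was narrower than that of the mean over all members. That mean ran from -0.31 to 0.276 in GM501 twins and from -0.417 to 0.272 in SAGE twins, against -0.205 to 0.034 in controls. The SAGE twin of pair 8 had the lowest value of all arrays, although its array median was among those of pairs 1 to 6. The GM501 twin of pair 10 stood at 0.159, apart from the other 7 twins of its set, and the GM501 twin of pair 1 stood at -0.041.

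Twins varied more than controls. The SD between embryos was wider in GM501 twins than in controls for 38 of 38 members (all genes 87.1%), and wider in SAGE twins for 37 of 38 (all genes 87.6%). The median SD was 0.29 for GM501 twins and 0.32 for SAGE twins, against 0.11 for controls. Over all genes it was 0.46 for GM501 twins and 0.48 for SAGE twins, against 0.25 for controls. The SDs of twins span both sets of pairs and so include the offset between them. For the mean over all members the SD was 0.23 over all GM501 twins, 0.12 in pairs 1 to 6 and 0.20 in pairs 7 to 10. In SAGE twins it was 0.28, 0.066 and 0.11, against 0.069 in controls. SDs of single genes within the sets are not given here.

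The medium alone was compared within pairs, where co-twins share a genome. No member was called, and neither was any other of the 18087 genes tested (0.0% by limma). None of the 38 members had an unadjusted p under 0.05, against 695 of all genes. The 95% interval excluded a change of 1 or more for 37 members, with a median half-width of 0.22. The median difference of GM501 minus SAGE was 0.038 (all genes 0.007), and 28 of 38 were above 0 (all genes 52.2%).

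The member with the smallest p was Rpl7, a large-subunit protein, higher in GM501 in 10 of 10 pairs. Its signals were 10.5, 10.8 and 10.9 in GM501 twins, against 10.3, 10.7 and 10.8 in SAGE twins (lowest, median, highest). The groups overlapped nearly throughout, and the difference was 0.16 ± 0.077 (SE, unadjusted p = 0.0551, adjusted p = 1). Rpl7a, another large-subunit protein, differed by 0.19 ± 0.11 and Rpl39l by 0.27 ± 0.17, each higher in GM501 in 8 of 10 pairs. Rps24 of the small subunit differed by 0.15 ± 0.11 and Rpl6l by -0.25 ± 0.18, with GM501 higher in 6 of 10 pairs for both. Each of these adjusted p-values was 1.

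Within pairs 7 to 10, GM501 twins were above their co-twins for 32 of 38 members (all genes 54.2%), with a median of 0.15, and in pairs 1 to 6 for 17 of 38 (all genes 48.6%), with a median of -0.012. No member was called in either set. Members read on the same arrays are not independent, so such counts of differences above 0, here and elsewhere, rest on few embryos. The test of the difference between the sets called no gene. Rpl10l had the smallest p among the members, with a medium difference 1.48 lower in pairs 1 to 6 than in pairs 7 to 10 (unadjusted p = 0.0135, adjusted p = 0.614). It was -0.16 ± 0.33 in pairs 1 to 6 and 1.32 ± 0.30 in pairs 7 to 10 (adjusted p = 0.832).

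Twin pairs differed from each other for part of the members, a share close to that of all genes. Embryo of origin was called by limma's F test for 11 of 38 members (28.9%), against 26.4% of all genes, which is 4 of 23 large-subunit and 7 of 15 small-subunit members. Rps20, a small-subunit protein of the head, had the smallest p (adjusted p = 0.00155), followed by Rpl39 (0.00219), Rpl38 (0.0032), Rpl32l, a retrocopy of Rpl32 (0.00405), and Rps28 (0.0132). Rps20 had signals of 9.53, 10.6 and 11.1 in GM501 twins and 9.28, 10.7 and 11.3 in SAGE twins (lowest, median, highest), against 9.75, 9.92 and 10.3 in controls. In each medium 7 twins lay above the highest control. For Rps20 the pair means ran from 10.6 to 11.1 in pairs 1 to 6 and from 9.45 to 10.4 in pairs 7 to 10. Rpl39 had 10.45, 11.8 and 12.44 in GM501 twins and 10.41, 11.6 and 12.42 in SAGE twins, against 10.8, 10.97 and 11.5 in controls. Twins lay above the highest control (6 in GM501, 5 in SAGE) and below the lowest (3 in each). Its pair means ran from 11.6 to 12.3 in pairs 1 to 6 and from 10.5 to 10.9 in pairs 7 to 10. The sets did not overlap for either gene. Of all 38 members, 20 (52.6%) had every pair mean of pairs 1 to 6 above every one of pairs 7 to 10, against 18.5% of all genes. The 11 called members were among these 20. The F test picks genes that differ widely between pairs on these same values, so it favours such a separation. All genes called by it were not counted for comparison. Tested within pairs 1 to 6 or within pairs 7 to 10, no member was called. For the 11 called members, likeness of co-twins and the difference between the sets cannot be told apart. The share of all genes called within these sets is not given here.

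**Figure D4:**
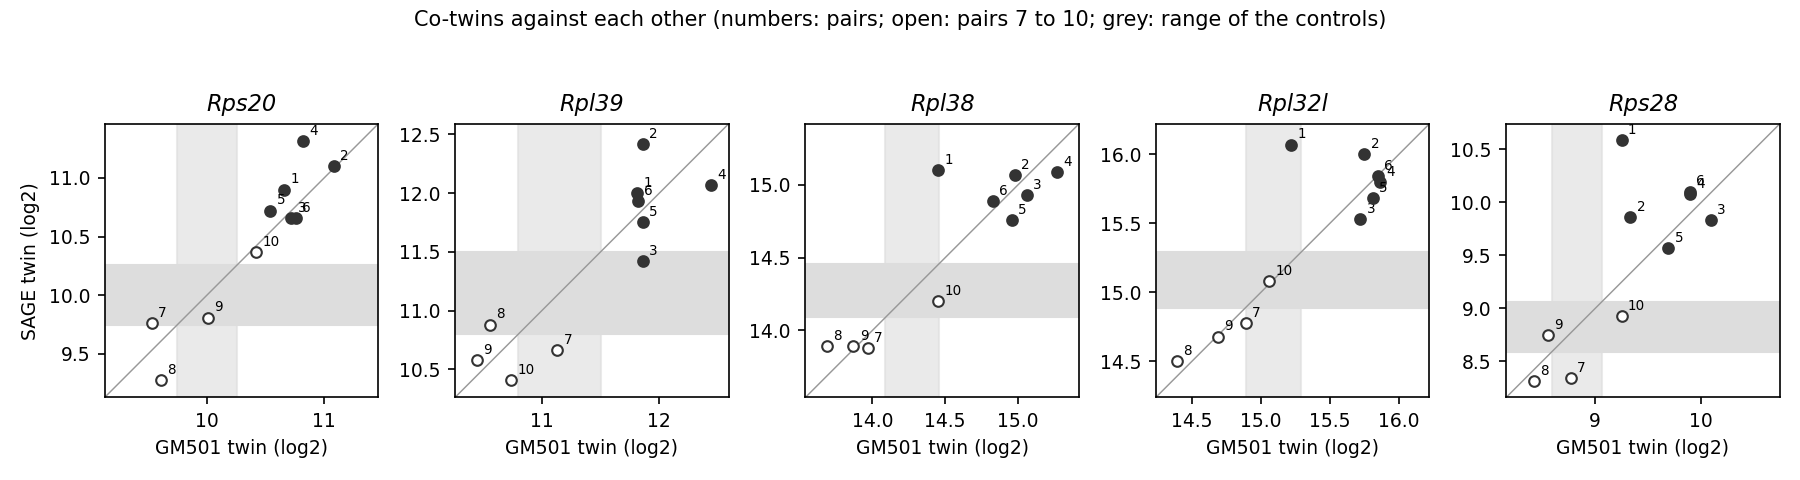
Signal (log2) of the GM501 twin (horizontal axis) against that of its SAGE co-twin (vertical axis) for the 5 members with the smallest p for embryo of origin; numbers are pairs, open points are pairs 7 to 10, grey bands span the 10 controls and the line marks equality. In every panel the pair means of pairs 1 to 6 all exceed those of pairs 7 to 10.

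For paralogs the difference from controls, or between media, was set against that of the parent gene on the same arrays, in 9 tests. Only 3 of the 8 pairs listed had a single-symbol cluster on both sides. For Rpl10l, Rpl3l, Rps27l, Rps4l and Rpl36al the gene itself or its parent lacked such a cluster, so Rpl10l was not set against Rpl10. Rpl39l relative to Rpl39 gave -0.007 ± 0.27 in GM501 twins against controls (exact permutation p = 0.982) and -0.24 ± 0.21 in SAGE twins (exact permutation p = 0.262). GM501 minus SAGE was 0.23 ± 0.24 (exact sign-flip p = 0.346).

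Rpl22l1, the paralog of Rpl22, gave 0.35 ± 0.14 relative to its parent in GM501 twins (exact permutation p = 0.025, adjusted p = 0.13) and 0.21 ± 0.11 in SAGE twins (exact permutation p = 0.0859, adjusted p = 0.193). Rpl7l1, which takes part in ribosome assembly, gave -0.87 ± 0.41 relative to Rpl7 in GM501 twins (exact permutation p = 0.0452, adjusted p = 0.136). In SAGE twins the value was -0.82 ± 0.34 (exact permutation p = 0.0288, adjusted p = 0.13). None of the 9 passed after Benjamini-Hochberg adjustment. Pairs 1 to 6 and pairs 7 to 10 differed in direction for Rpl7l1 against Rpl7, GM501 against KSOM controls, with -1.69 (exact permutation, adjusted p = 0.00112) and 0.37 (adjusted p = 0.126). For Rpl7l1 against Rpl7, SAGE against KSOM controls, they gave -1.21 (exact permutation, adjusted p = 0.011) and -0.24 (adjusted p = 0.671). Whether the sets differ was not tested, and since the sets were drawn from these arrays, their values are descriptions. GM501 minus SAGE was 0.14 ± 0.10 for Rpl22l1 (exact sign-flip p = 0.223) and -0.044 ± 0.31 for Rpl7l1 (exact sign-flip p = 0.883).

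Of the components outside the naming rule, 4 had a single-symbol cluster. None was called in GM501 or SAGE twins against controls. Rps3a1 of the small subunit differed by 0.029 ± 0.068 in GM501 twins and 0.006 ± 0.078 in SAGE twins. Fau, whose product is cut into a ubiquitin-like protein and Rps30, differed by 0.15 ± 0.19 and -0.03 ± 0.26. Its SAGE twins fell by 0.86 in pairs 7 to 10 (adjusted p = 0.0288) and rose by 0.52 in pairs 1 to 6 (adjusted p = 0.00684). In GM501 and SAGE twins Rpl22l1 differed by 0.45 ± 0.17 and 0.25 ± 0.19, and Rpl7l1 by -0.74 ± 0.36 and -0.86 ± 0.30, the last with an adjusted p of 0.0549 in SAGE twins. In pairs 1 to 6 Rpl7l1 fell by 1.49 ± 0.28 in GM501 twins (adjusted p = 0.000286) and by 1.10 ± 0.30 in SAGE twins (adjusted p = 0.0056). These fits assume equal spread, while the GM501 twins of pairs 1 to 6 ran from 9.49 to 11.87, against 12.03 to 12.67 in controls. In pairs 7 to 10 Rpl7l1 differed by 0.38 ± 0.13 in GM501 twins (adjusted p = 0.172) and -0.50 ± 0.28 in SAGE twins (adjusted p = 0.408). Rack1, Rpl36al, Rps27a, Rps6, Rplp1 and Rplp2 had no single-symbol cluster.

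The ribosome of the mitochondria was measured through 72 genes. In GM501 twins 7 rose and none fell, with a median of 0.26, and in SAGE twins 3 rose and 2 fell, with a median of 0.21. That is 9.72% and 6.94% called, against 13.8% and 16.1% of all genes, whose medians were 0.114 and 0.111. In pairs 7 to 10 the medians were -0.0435 with no call in GM501 twins and -0.31 with 2 falls in SAGE twins. Of all genes, 1.32% were called there in GM501 twins and 0.531% were lower in SAGE twins. Among 15 translation genes whose mRNAs carry TOP motifs, 2 fell in GM501 twins (13.3%, against 6.97% of all genes lower) and 6 in SAGE twins (40%, against 8.64%), and none rose. Their medians in pairs 7 to 10 were 0.0435 and -0.34. Eef2, the elongation factor that moves the ribosome along the mRNA, differed by -2.05 ± 0.61 in GM501 twins (adjusted p = 0.0349) and -2.34 ± 0.60 in SAGE twins (adjusted p = 0.0183). Eif3l, a subunit of initiation factor eIF3, differed by -1.34 ± 0.33 (adjusted p = 0.0186) and -1.45 ± 0.28 (adjusted p = 0.00692). Eef1g, a subunit of the elongation factor that recharges eEF1A, fell in SAGE twins by 0.46 ± 0.10 (adjusted p = 0.0109). None of these was called in pairs 7 to 10, where Eef2 differed by 0.32 ± 0.15 in GM501 twins and -0.36 ± 0.36 in SAGE twins. All genes were called there at 1.32% in GM501 twins and 0.813% in SAGE twins.

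Of 15 regulators of ribosomal protein synthesis, 2 rose and 7 fell in GM501 twins, and 7 fell in SAGE twins, where 6.81% of all genes were higher and 6.97% lower in GM501 twins and 7.49% and 8.64% in SAGE twins. Eif4ebp2 and Eif4ebp1, mTOR targets that hold back cap-dependent initiation, differed by -0.71 ± 0.12 (adjusted p = 0.0029) and -0.78 ± 0.16 (adjusted p = 0.00799) in GM501 twins. Tsc2, an upstream brake on mTOR complex 1, differed by -1.04 ± 0.20 (adjusted p = 0.00472). In SAGE twins the smallest p were those of Larp1, which binds TOP mRNAs, with -1.30 ± 0.29 (adjusted p = 0.0113), of the S6 kinase gene Rps6kb2, with -1.03 ± 0.26 (adjusted p = 0.017), and of Mtor itself, with -0.92 ± 0.24 (adjusted p = 0.0213). Eif4e, the cap-binding initiation factor, rose by 0.62 ± 0.14 in GM501 twins (adjusted p = 0.0148), as did the TATA-binding protein gene Tbp by 0.63 ± 0.18 (adjusted p = 0.0276). Genes that promote the pathway and genes that hold it back were both among those that fell. None of these regulators was called in pairs 7 to 10, where the list had medians of -0.06 in GM501 twins and -0.2485 in SAGE twins. Of all genes, 1.32% were called there in GM501 twins and 0.813% in SAGE twins.

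Among 11 chaperones and importers of ribosomal proteins, 3 fell in GM501 twins and 4 in SAGE twins (27.3% and 36.4%, against 13.8% and 16.1% of all genes called). Rrp7a, an assembly factor of the small subunit, differed by -0.93 ± 0.25 in GM501 twins (adjusted p = 0.0249), Aamp by -1.03 ± 0.28 (adjusted p = 0.0264) and Ipo5, an importin, by -1.39 ± 0.38 (adjusted p = 0.0265). Heatr3, which brings Rpl5 and Rpl11 into the nucleus, differed by -1.32 ± 0.26 in SAGE twins (adjusted p = 0.0079). Of 9 genes of ribosome quality control and hibernation, 1 rose and 2 fell in each medium (33.3%, against the same shares of all genes). Nemf, which marks stalled large subunits, rose by 0.54 ± 0.16 in GM501 twins and 0.64 ± 0.21 in SAGE twins. Gtpbp1, a translational GTPase, differed by -1.05 ± 0.26 and -1.23 ± 0.28, and Ltn1, the ligase that ubiquitinates stalled chains, by -0.97 ± 0.30 and -0.89 ± 0.27. In pairs 7 to 10 neither list had a call in either medium (all genes 1.32% called in GM501 twins and 0.813% in SAGE twins). The median of the chaperones and importers there was -0.039 in GM501 twins and -0.304 in SAGE twins, against -0.537 and -0.517 over all pairs. That of the quality control genes was 0.0405 and -0.004, against -0.259 and -0.35 over all pairs. Beside these, 6 of 7 trophectoderm markers fell in each medium (all genes 6.97% lower in GM501 twins and 8.64% in SAGE twins). Their medians were -0.70 in GM501 twins and -0.71 in SAGE twins, and their part in the results was not tested. Of 5 epiblast markers, 1 rose in GM501 twins (all genes 6.81% higher) and 3 fell in SAGE twins (all genes 8.64% lower). Differences of the 3 primitive endoderm markers kept for testing are not given here.

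Of 50 clusters of ribosomal protein genes that list several symbols, 1 rose in GM501 twins (2% called, against 9.38% of all 1364 such clusters kept). In SAGE twins 1 rose and 3 fell (8%, against 17.2%). None was called between GM501 and SAGE, where 41 of 50 differences were above 0, against 679 of all 1364.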

How the data were processed

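RNA of 30 single blastocysts, 10 in each group, was hybridised to mouse transcript-cluster arrays, 1 per embryo. The authors deposited RMA values made with Affymetrix Expression Console on a log2 scale, per the submitters' processing notes, which also name mm10; versions are not given in the sources used here, and the log base was read from the range of the values. Of 65956 transcript clusters, 30604 had 1 symbol in the platform annotation, of which 827 symbols were updated through RefSeq, giving 30142 genes; clusters with several symbols were kept out of the main tests. Genes in the upper 60% by mean entered linear models of limma (version 3.58.1, under R 4.3.3), each medium against the controls as separate groups and GM501 against SAGE with the pair as a block, at a Benjamini-Hochberg adjusted p under 0.05 over 18087 genes. Since ribosomal protein genes have many near-identical processed pseudogenes, the transcript behind a cluster is uncertain.

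The labels pair co-twins of the same embryo; their deviations correlated at 0.163 to 0.696, and 7 of 10 GM501 twins correlated best with their own co-twin. The labels do not say which matings or days the embryos came from, so each p-value rests only on how much the embryos at hand varied, and the number of arrays limits the precision. On simulated data with known changes of 0.5, 1 and 2, the fit of GM501 twins against controls called 33.7%, 73.1% and 98.5%, and the fit of GM501 against SAGE 11.5%, 42.7% and 85.9%. Members, gene lists and the sets of pairs were chosen with earlier results of these data known. Genes were named by rule: up to 8 called members in each direction against controls, the 5 smallest p for medium and for embryo of origin, the paralogs and components outside the naming rule, and up to 3 called genes per pathway list with the smallest p. Members called or largest within pairs 1 to 6 were named beside these. Alternatives were other filters, centring, trended variances, array weights, other clusters, subsets of pairs and leaving out each array.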

Additional observations from a re-analysis of the deposited data

Results flagged for a closer look

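The named members, the mean over all members and the large-minus-small difference were each examined in the 3 groups for a single embryo far from the others. Of 78 such sets of 10 values, 3 held one, while chance gives about 1 in 20. Rpl32l was at 15.29 in KSOM(aa) control 5, against 14.89 to 15.08 in the other controls. Rpl7a was at 15.28 in the SAGE twin of pair 8, against 15.92 to 16.37 in the other SAGE twins. That array also had the lowest mean over the members. Rps14 was at 7.92 in the SAGE twin of pair 2, against 8.38 to 8.74 in the other SAGE twins.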

How the results depend on the processing

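The comparison of media gave 0 rises and 0 falls under every alternative run, the fit with no replicate block included (median 0.038), and its median without any 1 pair was 0.021 to 0.071. In GM501 twins against controls, 2 members rose with no filter (all genes 14.1% higher). Array weights gave 15 rises and 3 falls (all genes 28.1% higher, 15.7% lower). Pairs 1 to 6 gave 22 rises and 5 falls (all genes 38.3% higher, 21.1% lower). Pairs 7 to 10 gave 0 falls (all genes 0.575% lower) and a median of -0.099. Pairs 7, 9 and 10 gave 0 falls (all genes 0.0995% lower) and 0.011 for Rpsa. In SAGE twins no filter gave 2 rises and 3 falls (all genes 19.8% higher, 6.44% lower) and centring on array medians 2 and 0 (9.08%, 7.93%). Array weights gave 14 and 3 (31.8%, 17.2%), and pairs 1 to 6 gave 20 and 3 (38.9%, 19.9%), with 0.52 for Fau. The upper 40% of genes and trended, robust variances each left 0 falls (all genes 12.4% and 8.67% lower). Pairs 7 to 10 gave 0 and 0 (all genes 0.282% higher, 0.531% lower) with a median of -0.20. Pairs 7, 9 and 10 gave 0 and 0 (0.315%, 0.37%) with -0.18. For pair means, 4 fell with no filter (all genes 8.17% lower), and 1 with the upper 40%, with centring and with trended variances (15.8%, 10.7% and 11.4%). Array weights gave 17 rises and 5 falls (all genes 39% higher, 20.7% lower). Pairs 1 to 6 gave 21 and 5 (all genes 42.1% higher, 22% lower). Pairs 7 to 10 gave 0 and 0 (all genes 0.381% higher, 0.348% lower) with a median of -0.155. There Rps28 stood at -0.124, and in pairs 7, 9 and 10 (0 and 0) Rps28 was at -0.024 and Rpl7l1 at 0.237. Embryo of origin was called for 0 members within either set. Within pairs 1 to 6, 4 of the 9 paralog tests lay under the threshold, those of Rpl22l1 and Rpl7l1 in each medium against controls. This is a description, since the sets were drawn from these arrays, and none of the 9 passed over all pairs. The values were 0.549 for Rpl22l1 against Rpl22, GM501 against KSOM controls, and 0.391 for Rpl22l1 against Rpl22, SAGE against KSOM controls. They were -1.69 for Rpl7l1 against Rpl7, GM501 against KSOM controls, and -1.21 for Rpl7l1 against Rpl7, SAGE against KSOM controls. Leaving out 1 array gave 1 to 6 rises, 0 to 1 falls and medians of 0.091 to 0.149 in GM501, and 0 to 5 rises, 0 to 3 falls and 0.027 to 0.101 in SAGE. Of all genes, these fits called 2.53% to 16.3% higher and 3.72% to 12.8% lower in GM501. In SAGE they called 2.61% to 20.7% higher and 4.62% to 14.1% lower. For pair means, leaving out 1 pair or control gave 1 to 8 rises, 1 to 4 falls and 0.048 to 0.119 (all genes 6.21% to 24.1% higher, 7.3% to 16% lower). Rises in GM501 were 3, 6, 3 and 2 without twins 7, 8, 9 and 10, and in SAGE 4, 4, 5 and 4. Of all genes, 13.3%, 14.8%, 12.5% and 16.3% were higher in these GM501 fits, and 13.7%, 7.96%, 20.7% and 16.8% in these SAGE fits. Rises in SAGE were 0 without twins 1, 2, 3 or 4 or controls 3, 6, 8, 9 or 10 and 2 without control 4 or 5, and falls were 0 without twins 1, 2, 3, 4 or 8 or any control and 3 without twin 9 or 10. For pair means, rises were 6, 7 and 8 without pairs 7, 8 and 9, and 4 without pair 10, and 1 without any of pairs 1 to 6 or controls 3, 6, 8 or 10; falls were 4 without pair 10, 3 without pair 7 or 9 and 1 without pairs 1, 2, 3, 4 or 6 or any control but 8. Calls in GM501 twins of Rpsa were lost without any of twins 1 to 6 or controls other than 8. The cause of these shifts was not tested.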

Other observations

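Symbols of ribosomal protein pseudogenes, with the ending -ps and a number, were kept for 202 genes, a list chosen after seeing the data. In GM501 twins 16 rose and 6 fell against controls, and in SAGE twins 5 rose and 7 fell (10.9% and 5.94% called, against 13.8% and 16.1% of all genes). In pairs 1 to 6 the counts were 158 and 10 in GM501 twins, and 154 and 8 in SAGE twins (83.2% and 80.2% called, against 59.4% and 58.8% of all genes). In pairs 7 to 10 none was called in GM501 twins (all genes 1.32%) and 4 fell in SAGE twins (all genes 0.531% lower). Between GM501 and SAGE none was called, with 177 of 202 differences above 0 (all genes 52.2%) and a median of 0.067. Transcripts of the parent genes may contribute to these signals, which was not tested.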
